A study of Mus musculus with 6 samples.

Results

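Markers of the thalamus, the cortex and hippocampus, and the striatum were followed in hypothalamic RNA of male mice. The set holds 32 genes, namely 10 of the thalamus, 14 of the cortex and hippocampus, and 8 of the striatum. They were chosen by name as known regional markers, with earlier results of these data already known. The brightest array row with a single gene symbol was taken for each. Of the 32 genes, 28 were measured in this way, among 21507 genes in all. *Neurod1* and *Ppp1r1b* share their rows with a second gene symbol, *Bhlhe22* and *Adora2a* were not named in the annotation used here, and none of these 4 was analysed. That left 10 thalamic, 12 cortical and hippocampal, and 6 striatal genes.

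The hypothalamus lies below the thalamus and close to the striatum, and the cortex and hippocampus lie farther away. These regions use different transcription factors and transmitter genes. Excitatory neurons of the adult thalamus express Tcf7l2 and, in many nuclei, protein kinase C delta. Excitatory neurons of the cortex and hippocampus use the glutamate transporter VGLUT1 and factors of the NeuroD, Emx, and Tbr families, whereas the medium spiny neurons of the striatum are rich in proteins of dopamine and cAMP signaling. In RNA from bulk tissue, fewer cells of a type and less RNA per cell cannot be told apart.

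Each group had 3 Affymetrix whole-transcript arrays. Slug fl/fl mice carried the floxed *Slug* (*Snai2*) gene without *Cre*, and Slug ΔLepRb mice carried the same floxed gene with homozygous *LepRb-Cre*, so that recombination was limited to cells that express the long leptin receptor. The labels give an age of 8 weeks and a CreERT2 line, whereas the methods of the study give a later age and a *Cre* knockin at *LepRb*. Whether an array held RNA of 1 mouse or a pool is not stated, and p-values here reflect only variation among the 6 arrays. Values are log2 expression, a difference of 1 is a doubling, and a contrast is Slug ΔLepRb minus Slug fl/fl.

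The array medians lay between 4.04 and 4.07. *Snai2* itself ranged from 3.79 to 4.23 under the Slug fl/fl label and from 9.68 to 10.49 under the Slug ΔLepRb label. This is the reverse of a deletion, and the position of its probes is not known, so all directions below follow the labels as they stand. *Lepr*, the gene that carries the *Cre* knockin, was also higher under the Slug ΔLepRb label, by 0.47 (SE 0.13), with no overlap between the groups. Its p was 0.0050 before and 0.74 after adjustment (limma). It thus passed the threshold of the study, which is given with the group contrasts below. Of 25 measured hypothalamic genes, 16 lay above the median of all genes, among them the neuropeptide genes *Pmch*, *Sst*, *Avp*, and *Oxt*. The 9 under that median were *Pomc*, *Crh*, *Kiss1*, *Nr5a1*, *Six6*, *Rax*, *Hmx2*, *Hmx3*, and *Gsx1*. As 8 of the 10 thalamic and all 6 striatal genes also lay above it, this count does not tell these tissues apart.

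The thalamic genes as a list had both their highest and their lowest array within the Slug fl/fl group. Slug fl/fl array 3 held the highest value of the 6 arrays for 7 of the 10 genes, and Slug fl/fl array 1 held the lowest value for 7 of the 10. Of all genes, 16.3% were highest in array 3 and 15.8% were lowest in array 1. The mean of the 10 genes, each set against its own mean over the 6 arrays, was 0.35 in Slug fl/fl array 3 and -0.27 in Slug fl/fl array 1. It was -0.046 in Slug fl/fl array 2, and 0.043, -0.069, and -0.0076 in Slug ΔLepRb arrays 1, 2, and 3. The 3 Slug ΔLepRb arrays therefore lay between the extremes of the Slug fl/fl group, with a spread of 0.056 (SD, n = 3) against 0.31 (SD, n = 3).

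**Figure D1:**
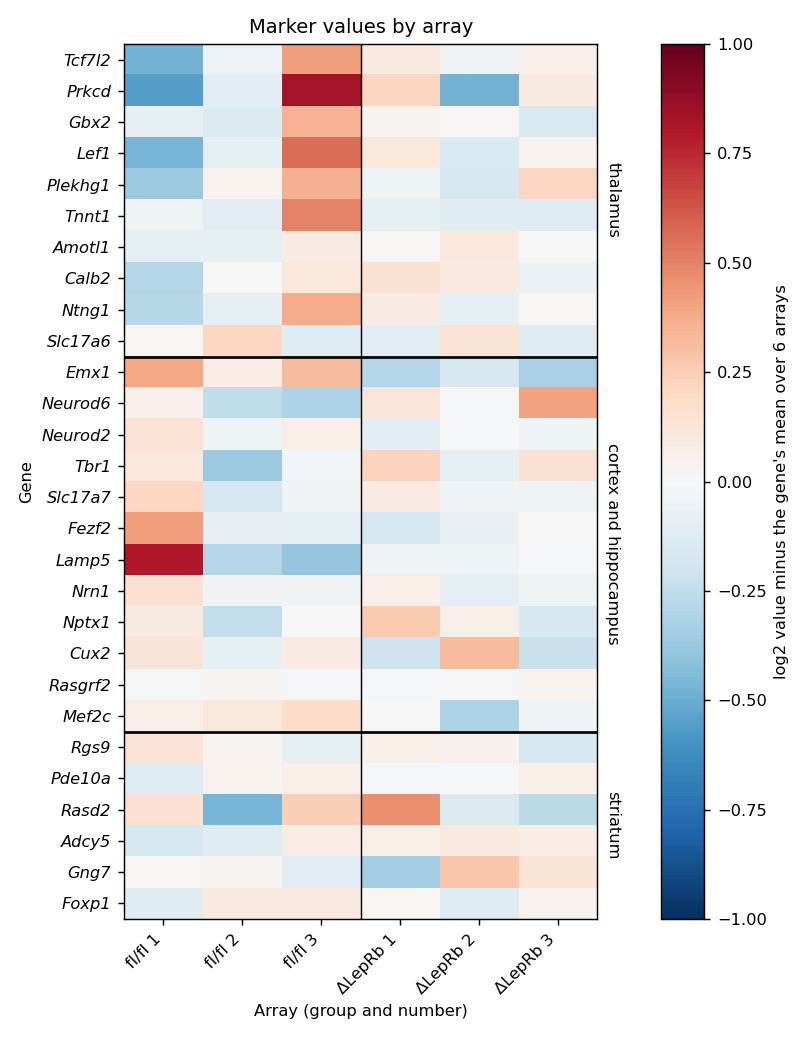
Log2 value of each of the 28 measured markers (rows) in each of the 6 arrays (columns) minus the gene's own mean over the arrays, with red above and blue below that mean. Slug fl/fl array 3 is red and array 1 blue for most thalamic genes, and Slug fl/fl array 1 is red for *Lamp5* and *Fezf2*.

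*Prkcd*, which encodes protein kinase C delta, had log2 values of 5.31, 5.75, and 6.69 in the Slug fl/fl arrays and 6.07, 5.38, and 5.95 in the Slug ΔLepRb arrays. The groups overlapped, and array 3 was 2.61-fold above array 1 within the Slug fl/fl group. Its spread within groups, a residual SD of 0.56, was at the 99.8th percentile of all genes.

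Tcf7l2 is a transcription factor of the Wnt pathway that shapes the identity of thalamic neurons. *Tcf7l2* was at 5.86, 6.28, and 6.76 in the Slug fl/fl arrays and at 6.44, 6.30, and 6.39 in the Slug ΔLepRb arrays. Array 3 was 1.86-fold above array 1 in the Slug fl/fl group, and the 3 Slug ΔLepRb arrays lay close together between these extremes.

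*Lef1* encodes a factor of the same TCF/LEF family. Its values were 4.04, 4.42, and 5.06 in the Slug fl/fl arrays and 4.62, 4.36, and 4.55 in the Slug ΔLepRb arrays. The same Slug fl/fl arrays were high and low as for *Prkcd* and *Tcf7l2*, with a 2.03-fold difference between arrays 3 and 1. *Lef1* and *Tcf7l2* were at the 98.5th and 96.5th percentiles of residual SD.

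*Ntng1*, which encodes the axonal guidance protein netrin-G1, had values of 6.97, 7.17, and 7.63 in the Slug fl/fl arrays and 7.33, 7.16, and 7.27 in the Slug ΔLepRb arrays. *Plekhg1*, which encodes a pleckstrin homology domain protein, was at 5.36, 5.76, and 6.09 in the first group and 5.68, 5.57, and 5.94 in the second. Both genes were again highest in Slug fl/fl array 3 and lowest in array 1, by 1.58-fold and 1.66-fold.

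The remaining thalamic genes split. *Gbx2*, a homeobox gene of thalamic development, was at 3.44 in Slug fl/fl array 3 and between 2.94 and 3.12 in the other 5 arrays. *Tnnt1*, a troponin T gene also transcribed in thalamic neurons, was at 3.82 in that array and between 3.19 and 3.27 in the others. These genes lay under the median of all genes, 4.18, and stood apart in Slug fl/fl array 3 only.

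*Calb2*, which encodes calretinin, was lowest in Slug fl/fl array 1, at 8.31, and between 8.53 and 8.75 in the other 5 arrays. *Amotl1*, an angiomotin-like scaffold gene, ranged only from 6.38 to 6.58. *Slc17a6*, which encodes the glutamate transporter VGLUT2 and is also widely used by hypothalamic neurons, went the other way, at 8.64, 8.83, and 8.49 in the Slug fl/fl arrays and 8.51, 8.76, and 8.50 in the Slug ΔLepRb arrays. *Slc17a6* was the only thalamic gene whose lowest value was in Slug fl/fl array 3. *Tcf7l2*, *Lef1*, and *Calb2* were likewise listed as members also known in the hypothalamus. Without these genes and *Slc17a6*, the highest and lowest array means of the list lay 0.66 apart, against 0.61 with all 10 genes.

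Slug fl/fl arrays 3 and 1 were set against each other after these values were seen, so the counts are a description. Array 3 exceeded array 1 by more than 25% for 8 of the 10 thalamic genes, against 7.48% of all genes. None of the 12 cortical and hippocampal genes and none of the 6 striatal genes did so. In the opposite direction, array 1 over array 3, the counts were 0 of 10, 3 of 12, and 0 of 6, against 7.91% of all genes.

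A further 10 thalamic genes outside the marker set were taken from a separate list, also chosen with earlier results of these data known. Of these 10 genes, 6 were more than 25% higher in Slug fl/fl array 3 than in array 1. The others were *Rora*, *Slitrk6*, *Zic1*, and *Zic4*, higher in array 3 by 0.18, 0.17, 0.13, and 0.099 on the log2 scale. Of the 10 genes, 7 were highest of all arrays in Slug fl/fl array 3. The pair with the largest difference between Slug fl/fl arrays 3 and 1 is given here, picked after these values were seen. *Synpo2*, which encodes an actin-binding protein, was at 4.37, 4.70, and 5.16 in the Slug fl/fl arrays and 4.77, 4.49, and 5.07 in the Slug ΔLepRb arrays. *Rgs16*, a regulator of G protein signaling, was at 6.24, 6.75, and 6.93 in the first group and 6.71, 6.53, and 6.63 in the second. The further list differed from the marker list in Slug ΔLepRb array 2, where 6 of its 10 genes were lowest and its mean was -0.17, equal to its mean of -0.17 in Slug fl/fl array 1. The spread of its array means was 0.12 (SD, n = 3) in the Slug ΔLepRb group against 0.19 (SD, n = 3) in the Slug fl/fl group.

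**Figure D2:**
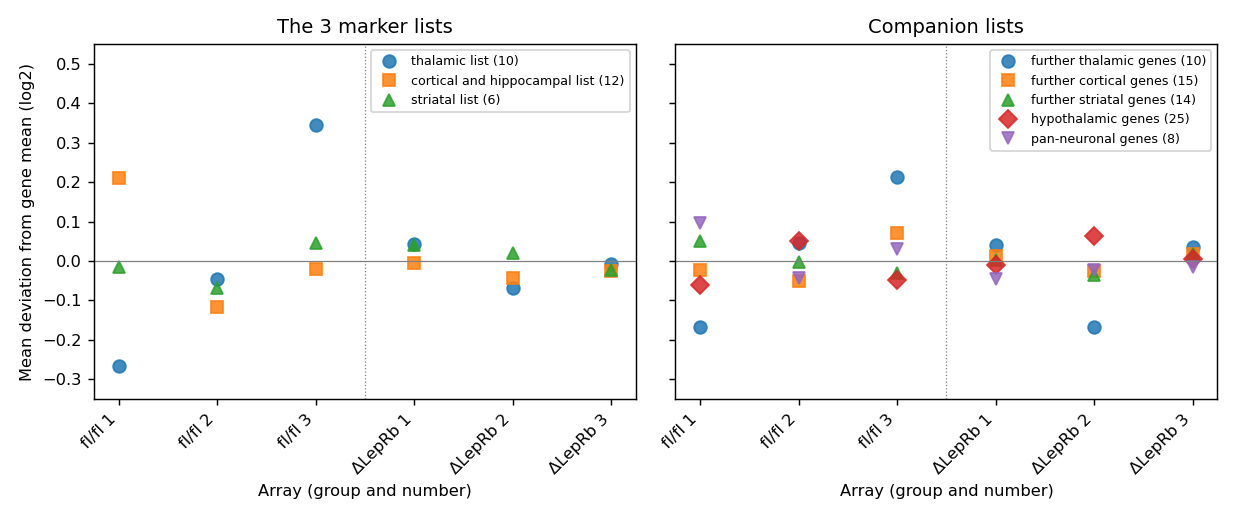
Mean over the genes of each list of the log2 deviation from the gene's own mean, per array, with the number of genes in brackets. Both thalamic lists peak in Slug fl/fl array 3 at 0.35 and 0.21, while the hypothalamic genes stay between -0.060 and 0.063 in all 6 arrays.

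Other tissues moved between the same arrays to different extents. Slug fl/fl array 3 was more than 25% above array 1 for 3 of 7 choroid plexus and 3 of 25 hypothalamic genes. The counts were 2 of 15 further cortical, 1 of 14 further striatal, and 0 of 8 habenular genes, against 7.48% of all genes. In the opposite direction these counts were 1, 4, 0, 2, and 1, against 7.91% of all genes. The further cortical genes had their highest mean, 0.071, in Slug fl/fl array 3, where the habenular genes were at -0.020. The hypothalamic genes were at -0.060 in Slug fl/fl array 1 and -0.049 in array 3, and 8 pan-neuronal genes at 0.097 and 0.029. Choroid plexus genes, of which 7 of 9 listed genes were measured, were at -0.14, -0.14, and 0.18 in the Slug fl/fl arrays and at 0.22, 0.028, and -0.14 in the Slug ΔLepRb arrays. They were thus highest in Slug ΔLepRb array 1, where the thalamic list was at 0.043. *Ttr*, their defining transthyretin gene, was at 4.70 in Slug fl/fl array 1 and 5.68 in array 3. The summed linear level of the choroid plexus genes ran from 109 to 146 in the Slug fl/fl group and from 114 to 153 in the Slug ΔLepRb group. Its part in the thalamic values was not tested.

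Sequences at the start sites of members that moved together are shown for the pair of thalamic genes with the widest range over the arrays, each by a window that held a match, and for the cortical gene with the largest group contrast, which is described further below. The windows run from 250 bases before to 50 bases after an annotated start and come from RefSeq on GRCm38.p6, in which 25 of the 28 genes matched, with 39 windows. The letters CTTTGA, a core of the TCF/LEF motif, and CAGGTG, an E-box of the kind that Slug binds, were searched on both strands. Capitals mark the matches, here TCAAAG and CACCTG, which are the same letters on the opposite strand. The Prkcd window is at chr14:30626159-30626458 on the minus strand, the Lef1 window, at a downstream start, at chr3:131156044-131156343 on the plus strand, and the Emx1 window at chr6:85187681-85187980 on the plus strand.
Prkcd: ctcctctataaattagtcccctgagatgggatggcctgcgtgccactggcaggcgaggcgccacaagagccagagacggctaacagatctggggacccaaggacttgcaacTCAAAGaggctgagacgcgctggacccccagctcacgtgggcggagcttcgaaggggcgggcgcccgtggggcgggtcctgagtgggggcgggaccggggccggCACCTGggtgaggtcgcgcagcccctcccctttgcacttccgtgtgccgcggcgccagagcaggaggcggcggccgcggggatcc
Lef1: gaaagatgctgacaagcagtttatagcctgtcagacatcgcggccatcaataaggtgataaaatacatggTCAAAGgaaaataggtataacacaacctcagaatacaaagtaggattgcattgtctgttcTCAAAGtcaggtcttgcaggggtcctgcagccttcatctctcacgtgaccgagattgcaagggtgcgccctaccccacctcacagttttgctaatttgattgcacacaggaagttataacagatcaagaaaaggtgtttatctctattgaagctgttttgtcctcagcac
Emx1: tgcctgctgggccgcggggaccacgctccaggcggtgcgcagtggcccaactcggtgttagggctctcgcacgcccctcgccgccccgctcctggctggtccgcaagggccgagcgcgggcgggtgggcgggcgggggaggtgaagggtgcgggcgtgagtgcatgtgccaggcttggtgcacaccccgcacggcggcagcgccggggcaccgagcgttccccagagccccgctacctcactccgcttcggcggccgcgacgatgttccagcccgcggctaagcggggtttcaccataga

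The *Prkcd* window shown held 1 TCF/LEF match and, without overlap, 1 E-box match. The *Lef1* window shown held 2 TCF/LEF matches and no E-box match. The other *Prkcd* window, at chr14:30610261-30610560, held neither. The other *Lef1* windows, all at upstream starts, held no TCF/LEF match, and that at chr3:131110073-131110372 held 1 E-box match. The *Emx1* window held neither. TCF/LEF letters were found in 2 of the 15 windows of thalamic genes, against 16.0% of 32851 windows of all genes, and E-box letters in 4 of the 15, against 20.2%. A match is a description of the letters and not of a site in use.

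Cortical and hippocampal genes were highest in Slug fl/fl array 1 for 6 of 12, against 16.8% of all genes. Their mean was 0.21 in that array and between -0.12 and -0.0054 in the other 5. *Lamp5*, a lysosome-associated membrane protein gene of cortical layers and interneurons, was at 6.17, 5.08, and 4.97 in the Slug fl/fl arrays and 5.33, 5.32, and 5.35 in the Slug ΔLepRb arrays. Slug fl/fl array 1 alone stood apart, 1.76-fold above the next highest array, and the residual SD was at the 99.6th percentile of all genes.

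*Fezf2*, a zinc-finger gene of subcortical projection neurons, showed the same array apart, at 4.39, 3.89, and 3.88 in the Slug fl/fl arrays and 3.79, 3.89, and 3.97 in the Slug ΔLepRb arrays. The defining gene of cortical excitatory transmission did not set array 1 as far apart. *Slc17a7*, which encodes VGLUT1, was at 2.91, 2.53, and 2.67 in the first group and 2.78, 2.67, and 2.66 in the second, under the median of all genes throughout. Of the 12 genes, 6 lay under that median, namely *Emx1*, *Neurod6*, *Neurod2*, *Tbr1*, *Slc17a7*, and *Fezf2*.

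The other cortical genes did not share the pattern of *Lamp5*. *Nrn1*, which encodes the growth-related protein neuritin, was highest in Slug fl/fl array 1 but ranged only from 7.78 to 8.03. *Nptx1*, a neuronal pentraxin gene, ranged from 5.77 to 6.28 and *Cux2*, a homeobox gene of upper cortical layers, from 5.04 to 5.57, both highest in Slug ΔLepRb arrays. *Rasgrf2*, which encodes an exchange factor of Ras, was the steadiest member, between 8.20 and 8.26 in all 6 arrays, at the 0.4th percentile of residual SD. Of 15 further cortical genes, 1 was highest in Slug fl/fl array 1, and their mean there was -0.024. The means of 9 myelin genes, 0.11, and of the pan-neuronal genes, 0.097, were also highest in Slug fl/fl array 1, and their part in the values of the cortical markers was not tested.

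Striatal genes showed no array apart as a list, with means between -0.069 and 0.045 in the 6 arrays. *Rasd2*, which encodes the striatal GTPase Rhes, varied most, at 5.74, 5.11, and 5.82 in the Slug fl/fl arrays and 6.04, 5.43, and 5.30 in the Slug ΔLepRb arrays. *Gng7*, a G protein subunit gene, was at 5.89, 5.89, and 5.75 in the first group and ranged from 5.52 to 6.15 in the second. These genes had their highest and lowest arrays in different places, and the groups overlapped for both.

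The remaining striatal genes were steady. *Rgs9*, a regulator of G protein signaling, ranged from 6.91 to 7.23, and *Pde10a*, a cyclic nucleotide phosphodiesterase gene, from 5.88 to 6.07. *Foxp1*, a forkhead transcription factor gene that is not restricted to the striatum, ranged from 6.62 to 6.85. *Adcy5*, the main adenylyl cyclase gene of the striatum, was at 6.69, 6.74, and 6.94 in the Slug fl/fl arrays and 6.93, 6.96, and 6.94 in the Slug ΔLepRb arrays.

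**Figure D3:**
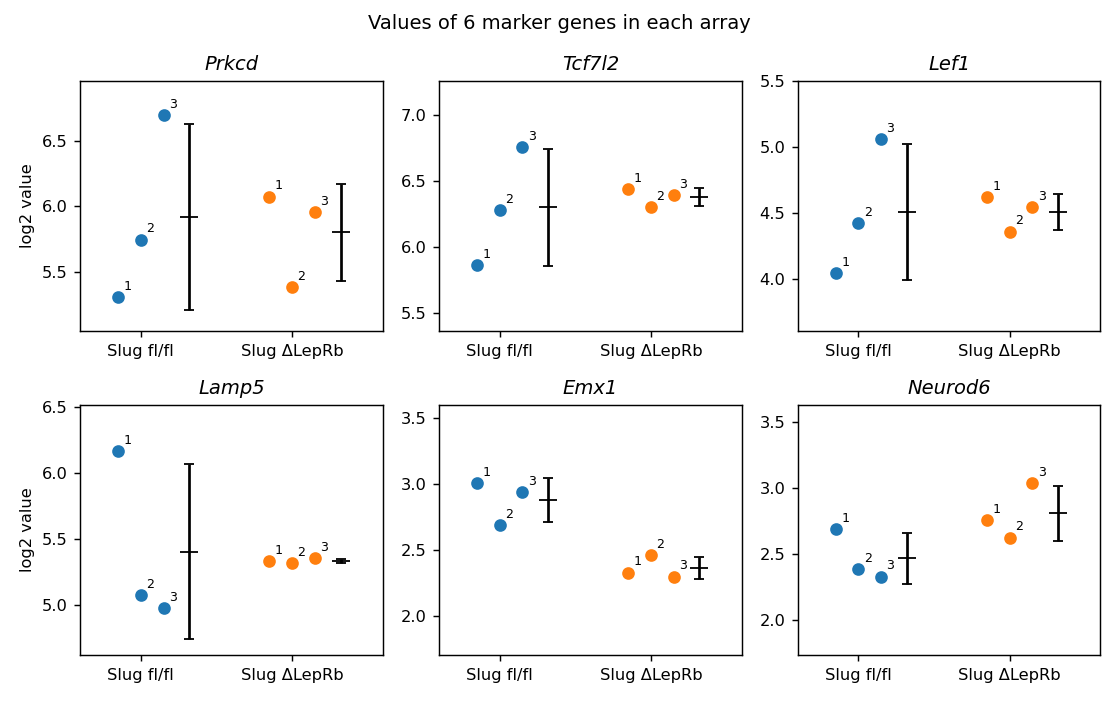
Log2 values of 6 markers in each array, numbered within its group, with the group mean and SD (n = 3) beside the points on axes of equal span. *Prkcd*, *Tcf7l2*, and *Lef1* are highest in Slug fl/fl array 3, *Lamp5* in Slug fl/fl array 1, and only *Emx1* separates the groups.

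Between the groups, 1 marker was lower and 1 higher in the Slug ΔLepRb group by the threshold of the study, which asks for p under 0.05 before adjustment together with a rise or fall of more than 25%. Both are cortical genes of low signal, and the other 26 did not pass. Of all genes, 0.577% were lower and 1.44% were higher, together 2.01%. The share of the markers, 2 of 28, was above that of all genes but rests on 2 dim genes, 1 in each direction. No marker passed an adjusted p of 0.05, which 0.0139% of all genes did (limma, Benjamini-Hochberg), and 2 of 28 had an unadjusted p under 0.05, as did 1259 of the 21507 genes.

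*Emx1*, a homeobox gene of the dorsal telencephalon, was at 3.01, 2.69, and 2.94 in the Slug fl/fl arrays and 2.33, 2.46, and 2.30 in the Slug ΔLepRb arrays. All Slug ΔLepRb arrays were below all Slug fl/fl arrays, and the level was 30.2% lower. The groups differed by -0.52 on the log2 scale (SE 0.11, 95% interval -0.77 to -0.27), with an adjusted p of 0.55 in limma and an exact permutation p of 0.10, the smallest that 3 arrays against 3 allow. It stayed between -0.61 and -0.45 as each array was left out. Its signal lay under the median gene in every array, so the gene was absent from the fit of brighter genes.

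*Neurod6*, a bHLH factor gene of pyramidal neurons, was at 2.69, 2.39, and 2.33 in the Slug fl/fl arrays and 2.76, 2.62, and 3.04 in the Slug ΔLepRb arrays, so the groups overlapped. The difference was 0.34 (SE 0.14), or 1.27-fold, with an adjusted p of 0.84 in limma. It no longer passed without Slug fl/fl array 2 (0.30) or 3 (0.27), without Slug ΔLepRb array 1 (0.36) or 3 (0.22), or with the methods' t-test. *Neurod2*, of the same family, ranged from 3.16 to 3.41 with a difference of -0.11 (SE 0.095).

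*Mef2c*, a transcription factor gene of cortical neurons and also of microglia, was the other marker whose groups did not overlap. It was at 5.50, 5.55, and 5.62 in the Slug fl/fl arrays and 5.45, 5.12, and 5.40 in the Slug ΔLepRb arrays, a difference of -0.23 (SE 0.11, adjusted p = 0.84, limma) that did not pass. Groups that do not overlap were thus seen for 2 of 28 markers, against 11.5% of all genes. *Tbr1*, a T-box gene of deep cortical layers, differed by 0.19 (SE 0.14), with values from 2.52 to 3.01 in the Slug fl/fl group and from 2.81 to 3.12 in the Slug ΔLepRb group. The difference of *Mef2c* was -0.13 without Slug ΔLepRb array 2, and that of *Tbr1* was 0.053 without Slug fl/fl array 2.

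None of the thalamic genes passed. Their differences ran from -0.23 to 0.12, with 3 above and 7 below 0, and a median of -0.0061 against 0.0021 over all genes. The 4 with the smallest p were *Tnnt1* at -0.23 (SE 0.15), *Calb2* at 0.12 (SE 0.12), *Amotl1* at 0.072 (SE 0.098), and *Slc17a6* at -0.066 (SE 0.12). *Tnnt1* was at -0.036 without Slug fl/fl array 3 and *Calb2* at 0.0067 without Slug fl/fl array 1, and *Amotl1* lay between 0.039 and 0.13 when single arrays were omitted. The wide spread in the Slug fl/fl group limits what these arrays can show, since *Prkcd*, at -0.11, had a 95% confidence interval from -0.80 to 0.57. The median of the thalamic list moved to 0.18 without Slug fl/fl array 3 and to -0.14 without Slug fl/fl array 1, so a single array sets its direction. Without Slug ΔLepRb array 2 it was 0.057, and without the members also known in the hypothalamus it was -0.042.

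The median difference was -0.061 for the cortical and hippocampal genes, or 0.0066 without Slug fl/fl array 1, and 0.028 for the striatal genes. No striatal gene passed, and those with the smallest p were *Adcy5* at 0.16 (SE 0.10), *Foxp1* at -0.050 (SE 0.10), *Rgs9* at -0.049 (SE 0.11), and *Gng7* at 0.044 (SE 0.15). Of the 10 further thalamic, 15 further cortical, and 14 further striatal genes, 1 passed. *Icam5*, which encodes the neuronal adhesion molecule telencephalin, was at 4.79, 5.08, and 4.98 in the Slug fl/fl arrays and 5.37, 5.45, and 5.28 in the Slug ΔLepRb arrays. It was 1.33-fold higher, by 0.42 on the log2 scale (SE 0.11), with an adjusted p of 0.72 in limma.

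Of the 25 hypothalamic genes, *Hdc*, the histamine synthesis gene, was higher (0.44, SE 0.12) and *Avp*, the vasopressin gene, lower (-0.46, SE 0.14). *Avp* had an adjusted p of 0.77 and *Hdc* one of 0.74 (limma). *Avp* no longer passed without Slug fl/fl array 2 (-0.34) or Slug ΔLepRb array 1 (-0.38). The summed linear level of the hypothalamic genes includes *Avp* itself. It was highest in Slug fl/fl array 2, at 4121, and lowest in Slug ΔLepRb array 1, at 3519. The mean of the list, in which each gene counts equally, was 0.050 and -0.0097 in these arrays. That mean was highest in Slug ΔLepRb array 2, at 0.063, and lowest in Slug fl/fl array 1, at -0.060.

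**Figure D4:**
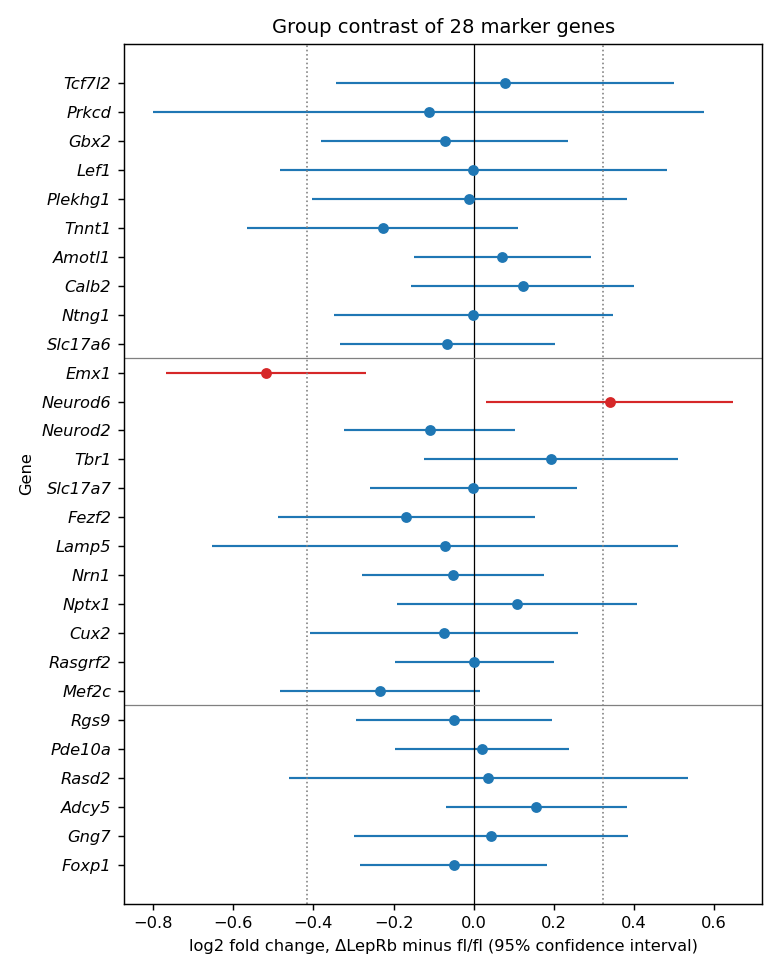
Log2 fold change (Slug ΔLepRb minus Slug fl/fl) of the 28 markers with 95% confidence intervals from limma, in red where the threshold was passed. Dotted lines mark a rise and a fall of 25%, and only *Emx1* and *Neurod6* pass, while *Prkcd* and *Lamp5* have the widest intervals.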

How the data were processed

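Total hypothalamic RNA of 3 Slug fl/fl and 3 Slug ΔLepRb samples was measured on Affymetrix whole-transcript arrays. The authors deposited 1 table of 24663 rows of processed values, read here as log2 because they run from 0.90 to 12.43. The submitters' processing notes name MAS5, whereas the normalization is not given in the sources used here. No scanner file was used, so background is unknown, and precision is limited by the 6 arrays. Rows with 1 gene symbol (21925) were reduced to the brightest row of each of 21507 genes, and 818 rows with several symbols and 1920 unnamed rows were left out. Groups were compared with lmFit and eBayes (limma 3.58.1, R 4.3.3) without covariates, with Benjamini-Hochberg adjustment over all genes, and the fit was tested on simulated data. Array means of a list are means over its genes of the value minus the gene's mean over 6 arrays. The members and lists were chosen with earlier results of these data known.

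All members were described. The group contrast was given singly for the 4 members of each list with the smallest p and for members past the threshold, with up to 2 such genes of each companion list. Companion lists were further thalamic, habenular, cortical, striatal, hypothalamic, choroid plexus, pituitary, myelin, and pan-neuronal genes. *Prkcd* and *Neurod2* were also given after their values were seen, as were the array values of single companion genes such as *Synpo2*, *Rgs16*, and *Ttr*. Alternatives tried were omission of each array, omission of dim genes or of members also known in the hypothalamus, the Student's t-test of the methods, quantile or median scaling, a robust intensity trend, array weights, averaged rows for a gene, and a block for the replicate number. With an array left out its group has 2, and limma pools the spread.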

Additional observations from a re-analysis of the deposited data

How the results depend on the processing

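The number of markers past the threshold, 2, was 1 with the methods' t-test, 0 among brighter genes alone, where neither *Emx1* nor *Neurod6* was tested, and 1 to 2 as each array was left out. Over all genes it was 433, against 218 with the t-test, 191 of the 10753 brighter genes, and 486 to 651 with the replicate block or an array left out. The array range of the thalamic list, 0.61, was 0.31 to 0.61 as each array was left out, lowest without Slug fl/fl array 3, and that of the cortical and hippocampal list, 0.33, was 0.11 to 0.33, lowest without Slug fl/fl array 1. The striatal range, 0.11, was 0.067, without Slug fl/fl array 2, to 0.11, and the striatal median contrast -0.019, without Slug ΔLepRb array 1, to 0.038. Signs turned as an array was left out for *Slc17a6* (-0.15 to 0.020), *Foxp1* (-0.12 to 0.0011), *Rgs9* (-0.11 to 0.026), and *Gng7* (-0.084 to 0.23), none of which had passed. With the replicate block, 2 markers passed and *Emx1* was at -0.52. The deviations of same-numbered arrays correlated at -0.0029, -0.0096, and -0.058 over genes, no array correlated best with its own number, and the labels do not pair the arrays. Some of these settings hold fewer arrays or genes, and the cause of the changes was not tested.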

Other observations

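Single genes of other lists also varied between arrays, and were picked after their values were seen. *Prl*, the prolactin gene of the anterior pituitary, was at 5.16 in Slug ΔLepRb array 1 and between 2.60 and 3.01 in the other 5 arrays. *Gh*, the growth hormone gene, was at 3.79 in the same array and between 2.76 and 3.11 in the others. *Chrna3*, an acetylcholine receptor subunit gene of the medial habenula, was spread without a single array apart, from 3.88 in Slug ΔLepRb array 1 to 5.13 in Slug fl/fl array 2. *Ebf1*, a transcription factor gene of the striatal list of companions, was at 6.13 in Slug fl/fl array 1, where *Lamp5* was highest, and between 5.04 and 5.45 in the other 5 arrays. None of these lists had a gene past the threshold.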
